A study of Mus musculus with 7 samples.

Results

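P2ry12, P2ry13, Gpr34, Siglech, Cx3cr1, Tmem119, Csf1r, Sall1 and Fcrls are receptor and identity genes of resting microglia, the macrophages that live in the brain. They were taken by gene symbol, as the 9 rows of the deposited table that bear these names, out of 56941 rows. All 9 passed the filter of a mean of at least 1 TPM (transcripts per 1000000) over the samples, and were tested with the other genes that passed it, 17582 in all. RNA was sequenced from fresh cerebral cortex of mice at postnatal day 7, as 4 wild-type (WT) samples and 3 samples in which Hnrnph2 carries P213L (Hnrnph2 is X-linked and encodes an RNA-binding protein that acts in splicing). The labels give the age, genotype and tissue only, so sex, strain, zygosity and the way the variant was made are not known here. Whether each sample is its own animal is not stated either, and p-values then measure only the spread between these samples, which may be technical. Cortex is a mixed tissue, and fewer microglia and less RNA per microglial cell cannot be told apart in it.

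Microglia keep their processes in motion through the tissue and carry a set of surface receptors that read the state of neighbouring cells. P2RY12 and P2RY13 sense ADP that leaks from active or injured cells, GPR34 senses a lysophospholipid, CX3CR1 binds the neuronal chemokine CX3CL1, and CSF1R receives the survival signals CSF1 and IL34. Siglec-H is a lectin that signals through the adaptor DAP12, FCRLS is a scavenger-type relative of the Fc receptors, TMEM119 is a membrane protein used as a microglia marker, and SALL1 is a zinc finger factor that keeps microglia distinct from other macrophages. Several of these genes, P2ry12 above all, are known to be turned down when microglia leave the resting state.

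Promoter sequences are shown for P2ry12 and Siglech, which stood lower in P213L, and for P2ry13 and Fcrls beside them. The P213L mean was 85.1% of WT for P2ry13 and 99.6% for Fcrls, so only Fcrls was near-equal. The macrophage factor PU.1 binds a purine-rich box with the core GAGGAA, which is written in capitals on either strand (TTCCTC on the opposite one). Each window holds 250 bases before and 50 bases after a RefSeq gene start on GRCm38.p6, printed 5′ to 3′ on the strand of the gene. The windows are chr3:59262936-59263235, minus strand, for P2ry12, chr3:59210833-59211132, minus strand, for P2ry13, chr7:55767934-55768233, plus strand, for Siglech and chr3:87263475-87263774, minus strand, for Fcrls.
P2ry12: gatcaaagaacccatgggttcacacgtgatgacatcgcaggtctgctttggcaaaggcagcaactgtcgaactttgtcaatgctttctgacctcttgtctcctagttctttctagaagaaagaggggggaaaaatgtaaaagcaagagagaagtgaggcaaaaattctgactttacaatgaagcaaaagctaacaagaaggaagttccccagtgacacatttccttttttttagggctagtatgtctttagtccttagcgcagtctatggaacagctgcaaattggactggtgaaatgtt
P2ry13: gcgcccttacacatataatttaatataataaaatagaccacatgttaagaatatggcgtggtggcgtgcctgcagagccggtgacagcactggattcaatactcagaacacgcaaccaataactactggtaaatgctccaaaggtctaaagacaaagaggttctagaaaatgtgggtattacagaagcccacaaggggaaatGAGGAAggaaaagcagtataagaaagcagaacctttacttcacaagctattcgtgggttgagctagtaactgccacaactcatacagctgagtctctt
Siglech: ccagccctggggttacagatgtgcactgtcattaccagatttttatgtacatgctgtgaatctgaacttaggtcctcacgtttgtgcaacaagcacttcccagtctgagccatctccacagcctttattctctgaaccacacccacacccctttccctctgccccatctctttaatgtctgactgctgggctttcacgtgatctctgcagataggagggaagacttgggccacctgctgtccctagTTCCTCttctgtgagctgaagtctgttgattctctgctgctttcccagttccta
Fcrls: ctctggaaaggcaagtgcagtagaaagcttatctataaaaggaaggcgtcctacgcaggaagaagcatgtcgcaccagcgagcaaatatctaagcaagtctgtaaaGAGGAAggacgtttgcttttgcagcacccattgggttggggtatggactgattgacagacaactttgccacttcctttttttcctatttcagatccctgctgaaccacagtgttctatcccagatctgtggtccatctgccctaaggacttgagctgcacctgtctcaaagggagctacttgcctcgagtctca

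The core lay at -48 to -43 in P2ry13 and at -144 to -139 in Fcrls, on the strand of the gene, with the start base at 0. In Siglech it lay on the opposite strand, over the start itself (-4 to 1). It was not found in the window of P2ry12, in the window of Cx3cr1 or in the 3 windows of Sall1, so 3 of the 6 genes with a window held it. Of all 32851 promoter windows, 28.3% held it, against 37.5% of the 8 windows of these genes. The genes with the core include Siglech, lower in P213L, and Fcrls, with near-equal means, and P2ry12 without it was lower too. A match of 6 letters describes the window and is not a binding site.

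The purinergic receptor P2ry12, the lysophospholipid receptor Gpr34 and the lectin Siglech stood lower in P213L cortex, at 68.0%, 68.0% and 72.3% of their WT means. The other 6 genes, among them the growth factor receptor Csf1r and the identity factor Sall1, had P213L means from 85.1% to 113% of WT. No member passed the adjusted threshold of 0.05 in limma, whose smallest adjusted p over all genes was 0.117, and no gene in the table did (0%). At an unadjusted p under 0.05, P2ry12, Gpr34 and Siglech were lower and no member was higher, against a background of 1.38% of all tested genes lower and 2.36% higher. Siglech was the one member whose groups did not overlap, against 2.75% of tested genes that lay wholly lower and 5.94% that lay wholly higher in P213L. The 3 genes moved together from sample to sample, so their low values do not count as 3 separate results. In limma with sample weights, which set WT replicate 3 to a weight of 0.0431 and raised WT replicate 4 (5.24) and P213L replicate 3 (6.90), these 3 genes, P2ry13 and Cx3cr1 were lower at an adjusted p under 0.05, as 22.6% of all tested genes passed it in either direction.

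**Figure D1:**
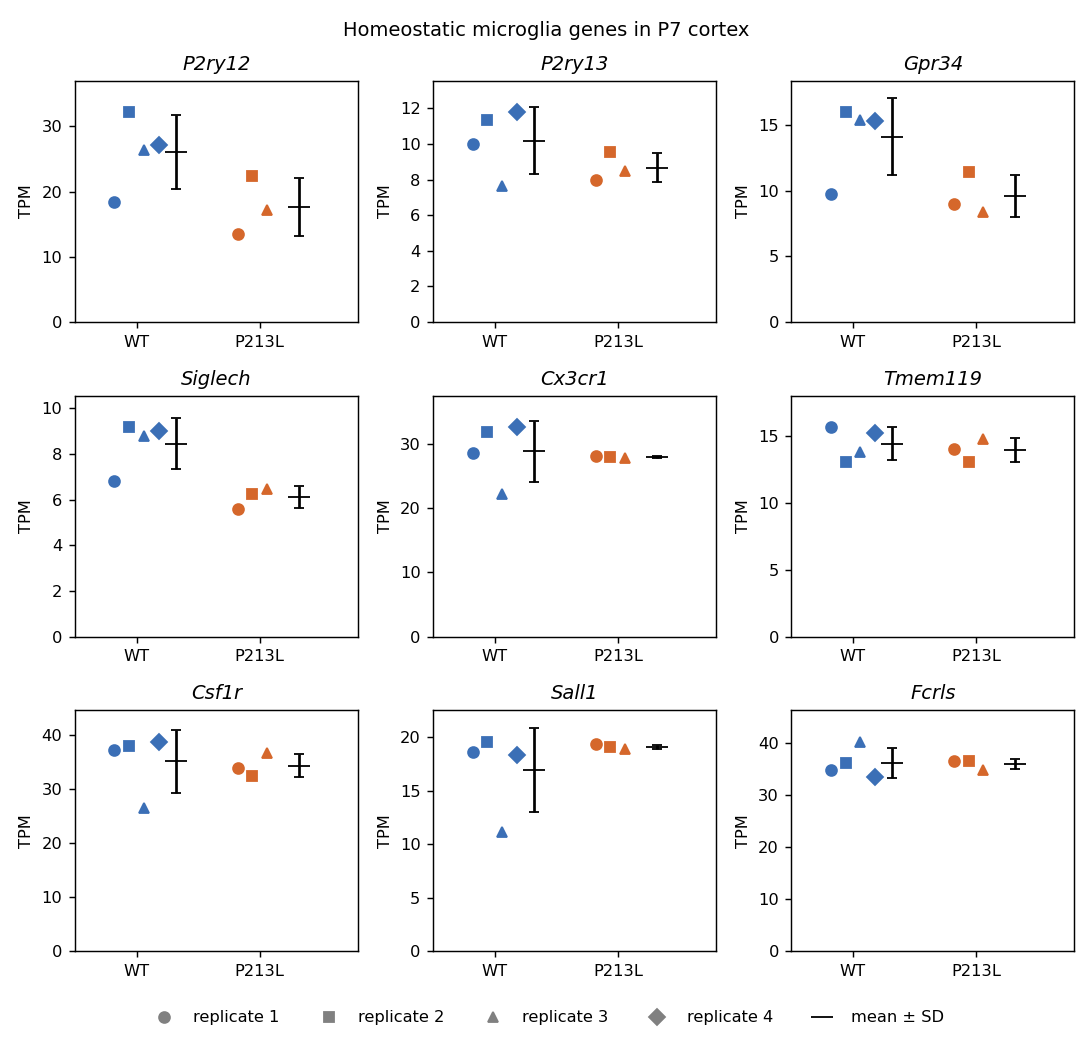
TPM of the 9 genes in each sample (vertical axis, from 0), with WT in blue, P213L in orange, a marker shape for each replicate number, and the mean with its SD in black. P2ry12 and Gpr34 lie lower in P213L with overlap at WT replicate 1, Siglech lies wholly lower, and WT replicate 3 is the lowest WT sample for Cx3cr1, Csf1r and Sall1.

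P2ry12, the ADP receptor that guides microglial processes, stood at 18.4, 32.1, 26.3 and 27.2 TPM in WT replicates 1 to 4 and at 13.5, 22.4 and 17.2 TPM in P213L replicates 1 to 3. WT replicate 1 was low and P213L replicate 2 lay above it, so the groups overlapped. The means were 26.0 ± 5.67 TPM (SD, n = 4) and 17.7 ± 4.46 TPM (SD, n = 3). On the scale of TPM + 0.5, the log2 fold change of P213L over WT was -0.55 ± 0.23 (SE), with a 95% interval of -1.07 to -0.02. In limma the unadjusted p was 0.0436 and the adjusted p 0.827, and the exact permutation test, two-sided, gave p = 0.0857. Only 1.42% of tested genes had a lower log2 fold change.

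P2ry13, the other ADP receptor and a neighbour of P2ry12 on the chromosome, stood at 10.01, 11.3, 7.61 and 11.8 TPM in WT and at 7.96, 9.55 and 8.48 TPM in P213L. The lowest sample of all was WT replicate 3, and the P213L samples lay between it and the other WT samples. The means were 10.2 ± 1.87 TPM (SD, n = 4) and 8.66 ± 0.811 TPM (SD, n = 3), a log2 fold change of -0.21 ± 0.17 (SE) with an interval of -0.60 to 0.19 that holds both no difference and the value of P2ry12. Without WT replicate 3 it was -0.33. The ratio of P2ry12 to P2ry13 was 1.84 to 3.46 in WT against 1.70 to 2.34 in P213L, and the groups overlapped.

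Gpr34, a receptor for lysophosphatidylserine, stood at 9.76, 15.9, 15.4 and 15.3 TPM in WT and at 8.94, 11.4 and 8.37 TPM in P213L. WT replicates 2 to 4 lay close together above all P213L samples, while WT replicate 1 fell among the P213L values. The means were 14.1 ± 2.90 TPM (SD, n = 4) and 9.58 ± 1.63 TPM (SD, n = 3). This is a log2 fold change of -0.52 ± 0.20 (SE), with an interval of -0.99 to -0.06, an unadjusted p of 0.0327 and an adjusted p of 0.827 in limma. The exact permutation test gave p = 0.0857.

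Siglech, a lectin of microglia that lacks signalling motifs of its own, stood at 6.80, 9.18, 8.81 and 9.03 TPM in WT and at 5.58, 6.26 and 6.49 TPM in P213L. Every P213L sample lay under every WT sample, and P213L replicate 3 came closest to the WT sample next to it, replicate 1. The means were 8.46 ± 1.11 TPM (SD, n = 4) and 6.11 ± 0.476 TPM (SD, n = 3). This is a log2 fold change of -0.43 ± 0.14 (SE), with an interval of -0.76 to -0.10, an unadjusted p of 0.0173 and an adjusted p of 0.827 in limma. The exact permutation test of the means gave p = 0.0571, above the smallest value this design allows (0.0286).

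The receptors that bind growth factor and chemokine ligands did not pass either threshold. Cx3cr1 stood at 28.6, 31.8, 22.2 and 32.6 TPM in WT and at 28.1, 28.0 and 27.7 TPM in P213L. The P213L samples nearly coincided and lay inside the WT range, which WT replicate 3 widened downwards. Csf1r stood at 37.2, 37.9, 26.4 and 38.7 TPM in WT and at 33.8, 32.4 and 36.6 TPM in P213L. All P213L samples lay between WT replicate 3 and the other WT samples. The log2 fold changes were -0.03 ± 0.15 (SE) for Cx3cr1, with an interval of -0.37 to 0.31, and -0.02 ± 0.15 (SE) for Csf1r, with an interval of -0.38 to 0.34. Both were -0.15 without WT replicate 3, and both turned above 0 without WT replicate 2 (0.0242 each) or without WT replicate 4 (0.0353 and 0.0336). Csf1r did so without WT replicate 1 (0.0153) or P213L replicate 2 (0.0210) as well.

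The surface markers Tmem119 and Fcrls were the members with the narrowest intervals. Tmem119 stood at 15.6, 13.002, 13.8 and 15.2 TPM in WT and at 14.01, 13.02 and 14.7 TPM in P213L. Fcrls stood at 34.8, 36.0, 40.2 and 33.4 TPM in WT and at 36.5, 36.5 and 34.8 TPM in P213L. For both genes all P213L samples lay within the WT range. The log2 fold changes were -0.04 ± 0.12 (SE), with an interval of -0.31 to 0.22, for Tmem119 and -0.003 ± 0.10 (SE), with an interval of -0.24 to 0.24, for Fcrls.

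Sall1, the transcription factor among the 9, was the only member with a higher P213L mean. It stood at 18.7, 19.6, 11.1 and 18.3 TPM in WT and at 19.3, 19.0 and 18.9 TPM in P213L. WT replicate 3 alone was low, and the other 6 samples lay between 18.3 and 19.6 TPM. The log2 fold change of 0.20 ± 0.20 (SE), with an interval of -0.26 to 0.66, became 0.02 without that sample.

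**Figure D2:**
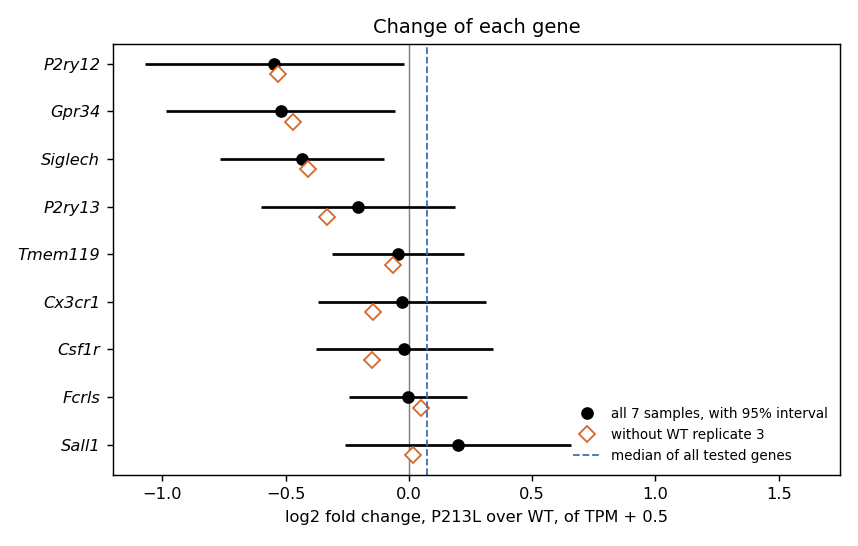
Log2 fold change of each gene, P213L over WT, on TPM + 0.5 (horizontal axis), with the 95% limma interval as a bar, the value without WT replicate 3 as an open diamond and the median of all tested genes as a dashed line. The intervals of P2ry12, Gpr34 and Siglech end below 0 and those of the other 6 genes include it.

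As a group, 8 of the 9 genes had a lower mean log value in P213L, where 36.6% of all tested genes did. Their median log2 fold change was -0.04, against 0.07 for all tested genes, of which the middle 90% ran from -0.31 to 0.54. Without WT replicate 3, 7 of 9 were lower with a median of -0.15, where 50.4% of all tested genes were lower with a median of -0.0016. With median-of-ratios scaling and quantile normalization the members' median was -0.13 and -0.16 (-0.01 for all genes in both). P2ry13 was then lower at an unadjusted limma p of 0.0386 and 0.0230. In that order, 1.996% and 2.33% of all tested genes were lower at an unadjusted p under 0.05, against 1.38% in the main fit. The summed level of the 9 genes was 171.8 to 207.0 TPM in WT against 167.7 to 178.6 TPM in P213L. Among all genes at an unadjusted p under 0.05, 63.2% were higher in P213L. After quantile normalization that share was 49.4%, after median-of-ratios scaling 51.9%, and after removal of mitochondrial genes 53.3%. Under each of these settings 8 of the 9 genes were lower. The share of all tested genes lower was 51.4%, 51.5% and 40.8%, in the same order.

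In order of WT mean, which TPM allows between genes because it is set per length, Fcrls was followed by Csf1r, Cx3cr1, P2ry12, Sall1, Tmem119, Gpr34, P2ry13 and Siglech. The WT ranges of all neighbouring pairs in this order overlapped. Csf1r lay above Cx3cr1 in all 7 samples, and Fcrls above Csf1r in 3 of 7. In P213L the order differed only in that Sall1 came before P2ry12. Within a library, P2ry12 per Fcrls was 0.529, 0.891, 0.656 and 0.814 in WT against 0.370, 0.613 and 0.494 in P213L. Gpr34 per Fcrls was 0.280 to 0.459 in WT against 0.241 to 0.313 in P213L. Both ratios overlapped between the groups. Siglech per Fcrls was 0.195 to 0.270 in WT against 0.153 to 0.186 in P213L, without overlap. These ratios do not depend on how a library was scaled, but they depend on the gene used as divisor. Siglech per Csf1r overlapped between the groups. It was lower in WT replicate 1 (Siglech 6.80 and Csf1r 37.2 TPM) than in P213L replicate 2 (6.26 and 32.4 TPM).

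P2ry12, Gpr34 and Siglech varied closely together over the samples, with Pearson correlations of log values over the 7 samples of 0.93 (P2ry12 and Gpr34), 0.91 (P2ry12 and Siglech) and 0.91 (Gpr34 and Siglech). Within the groups, as deviations from each group mean, these were 0.87, 0.85 and 0.81. The trio was low in WT replicate 1 as well as in P213L. The share of TPM in mitochondrial transcripts was 5.58, 8.51, 7.56 and 7.49% in WT and 4.17, 6.89 and 5.68% in P213L. Like P2ry12, it was lowest in P213L replicate 1, highest in WT replicate 2 and lowest among WT samples in replicate 1. After removal of mitochondrial genes and rescaling, P2ry12, Gpr34 and Siglech were at -0.57, -0.55 and -0.46. In the main fit they were at -0.55, -0.52 and -0.43. Any other tie of this share to the trio was not tested. Cx3cr1 and Csf1r correlated at 0.93, and at 0.71 without WT replicate 3. Without that sample Cx3cr1 was closer to Siglech (0.94), Gpr34 (0.92) and P2ry12 (0.82), with which it had correlated at 0.11, 0.08 and 0.17, and P2ry13 correlated with the trio at 0.91 to 0.93. The separation of the trio from Cx3cr1 and P2ry13 therefore rests on WT replicate 3. Csf1r and Fcrls ran opposite ways (-0.93, and -0.75 without it). P2ry12 and P2ry13 correlated at 0.57 over all samples. P2ry12 and Fcrls were nearly unrelated (0.11). These are descriptions of 36 pairs over 7 samples that share library scaling, and the trio's values include the group difference.

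**Figure D3:**
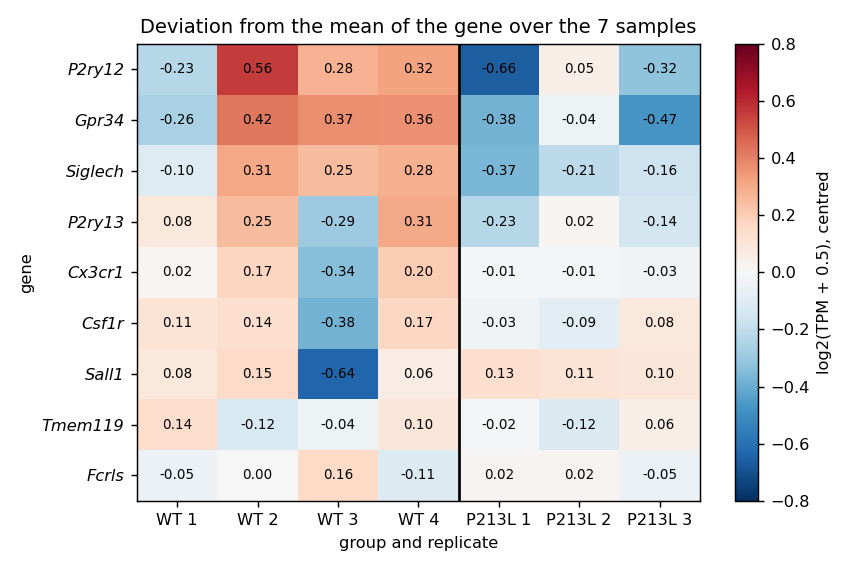
Log2(TPM + 0.5) of each gene (rows) in each sample (columns), as the deviation from the gene's mean over the 7 samples, with red above and blue below it and P213L to the right of the black line. P2ry12, Gpr34 and Siglech are below their means in WT replicate 1 and in P213L replicates 1 and 3 and differ in P213L replicate 2 (0.05, -0.04 and -0.21), and WT replicate 3 is low for Sall1 (-0.64), Csf1r, Cx3cr1 and P2ry13.

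WT replicate 3 stood apart in the whole table. Over the tested genes it correlated with the other 6 libraries at 0.943 to 0.949, where those 6 correlated with each other at 0.981 to 0.992, and 28367 rows were above 0 in it, against 31387 to 32526. Its depth, estimated from the steps between low values, was 57.2 M counted units (M, 1000000), and 66.3 to 79.5 M in the others. Malat1, a nuclear RNA, also differed between the groups (89.9 to 385.2 TPM in WT against 488.2 to 568.7 TPM in P213L), as did the ribosomal RNA row Rn18s-rs5 (1.31 to 2.41% and 2.56 to 4.12% of TPM). Their part in the values of the microglia genes was not tested. Without WT replicate 3, P2ry12 was at -0.53, Gpr34 at -0.47 and Siglech at -0.41. The unadjusted limma p was then under 0.05 for Gpr34 and Siglech and 0.0567 for P2ry12, and P2ry13 (-0.33) took its place with an unadjusted p of 0.0112, against 3.99% of all tested genes lower at that threshold. Neuronal markers stood at 6584 to 7272 TPM summed over 10 genes, with Tubb3 alone at a mean of 3903 TPM. No other brain region was sampled, so this sum cannot check the cortex label. The table holds no bases, so the variant itself could not be read from it.

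By the same estimate of depth, P2ry12 rested on 670 to 1525 counted units per library, Gpr34 on 364 to 621, Siglech on 368 to 579 and P2ry13 on 350 to 534. The others had from 561 (the lowest library for Tmem119) to 4412 (the highest for Csf1r). For the trio the spread between WT samples came mainly from WT replicate 1. Leaving it out gave -0.70, -0.68 and -0.53 for P2ry12, Gpr34 and Siglech. Leaving out P213L replicate 1, which held the lowest P2ry12 and Siglech values, gave -0.37, -0.48 and -0.37, and no member then had an unadjusted p under 0.05, as against 0.609% of all tested genes lower at that threshold. Without WT replicate 2, WT replicate 4 or P213L replicate 3, 1 member had, against 1.07%, 1.07% and 0.739% of all genes.

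Other genes of resting microglia leaned the same way with small values. Of 15 such genes, all tested, 13 were lower and 2 higher, where 36.6% of all tested genes were lower. Their median log2 fold change was -0.17. At an unadjusted p under 0.05, 1 gene was lower, against 1.38% of all tested genes. That gene was Ltc4s, a leukotriene synthase, at 4.66, 3.70, 6.88 and 3.87 TPM in WT against 3.54, 2.46 and 2.79 TPM in P213L. Its log2 fold change was -0.60 ± 0.23 (SE), and -0.42 without WT replicate 3, with an unadjusted p of 0.0318 and an adjusted p of 0.827 in limma. Every P213L sample lay under every WT sample for Ltc4s, for the phospholipid enzyme Lpcat2 (8.17 ± 0.119 TPM in WT against 7.08 ± 0.450 TPM in P213L) and for the protease inhibitor Cst3, which astrocytes make too. This held for 2.75% of all tested genes. Adgrg1, an adhesion receptor also of neural progenitors, had the higher mean in P213L (77.8 ± 15.0 and 94.8 ± 4.42 TPM). No gene of this list passed the adjusted threshold.

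Genes shared by microglia, for complement, phagocytosis and signalling, were examined beside the members. Whether they measure the microglial share of the RNA was not tested. Of 20, 18 were tested, with 15 lower and 3 higher, where 36.6% of all tested genes were lower. None of the 18 had an unadjusted p under 0.05, and their median was -0.10. Without WT replicate 3, 13 of the 18 were lower with a median of -0.09, where 50.4% of all tested genes were lower. The summed level of this list was 397 to 522 TPM in WT against 373 to 418 TPM in P213L, and the ranges overlapped. Ctss, a lysosomal protease, stood at 35.8, 41.4, 73.5 and 45.7 TPM in WT and at 37.5, 34.0 and 33.2 TPM in P213L. WT replicate 3 was the highest sample, and the log2 fold change was -0.43 with it and -0.22 without it. Ncf1, a subunit of the phagocyte oxidase, stood at 4.13 to 4.27 TPM in all WT samples and at 3.14 to 3.79 TPM in P213L, without overlap. The integrin Itgam lay wholly lower too, at 1.59 to 2.56 TPM in WT and at 1.12 to 1.58 TPM in P213L. The share of all tested genes that lay wholly lower was 2.75%. The Fc receptor Fcgr3 stood at 17.7 ± 2.15 TPM (SD, n = 4) and 14.8 ± 0.911 TPM (SD, n = 3), with overlap.

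The ligands of these receptors are known to come mostly from other cells, neurons among them. Of 13 genes for ligands and the enzymes that make or clear them, 6 were lower and 7 higher, none at an unadjusted p under 0.05, with a median of 0.01. Leaving out WT replicate 3 gave 8 lower and a median of -0.10. Cx3cl1, the neuronal ligand of CX3CR1, stood at 404 ± 74.8 TPM in WT against 374 ± 13.6 TPM in P213L. Il34, the neuronal ligand of CSF1R, stood at 62.5 ± 5.14 and 54.0 ± 5.01 TPM (log2 fold change -0.21 ± 0.11, SE), and Csf1 at 8.96 ± 2.03 and 10.5 ± 1.07 TPM. Tgfb1, the cytokine that maintains the resting state, stood at 6.83 to 7.87 TPM in WT against 6.43 to 6.78 TPM in P213L, without overlap, with a log2 fold change of -0.13. Pla1a, a phospholipase that makes the ligand of GPR34, stood at 0.985 to 1.54 TPM in WT and at 0.549, 0.387 and 1.24 TPM in P213L, with overlap and a log2 fold change of -0.53 ± 0.27 (SE). Entpd3, an enzyme that clears extracellular nucleotides, stood at 7.64 ± 2.77 and 11.4 ± 1.57 TPM.

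Adaptors and effectors downstream of the receptors were near the background of all genes. Of 15, 4 were lower and 11 higher, where 36.6% of all tested genes were lower, 1 was past an unadjusted p of 0.05, and the median was 0.12. With WT replicate 3 left out, 6 were lower and the median was 0.01. Gnai2, a G protein subunit used by P2RY12 and CX3CR1 and by many other cells, lay wholly higher in P213L (244.8 ± 21.0 and 276 ± 18.8 TPM), with a log2 fold change of 0.17 ± 0.11 (SE), and was not past that threshold in limma. Tyrobp, which encodes DAP12, the adaptor of Siglec-H, stood at 38.3 ± 6.16 and 35.4 ± 3.91 TPM, with a log2 fold change of -0.11. Of 10 other purine receptors 7 were tested, 1 lower and 6 higher, with a median of 0.04. Without WT replicate 3, 4 of 7 were lower and the median was -0.05. P2rx4, an ATP-gated channel, stood at 3.57 ± 0.351 and 3.84 ± 0.507 TPM.

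The lean of the factors that set microglial identity depended on WT replicate 3. Of 18 genes for these factors and for the TGF-beta pathway, 17 were tested, 6 lower and 11 higher, none at an unadjusted p under 0.05, with a median of 0.07. Without that sample 15 of 17 were lower and the median was -0.04. The share of all tested genes lower was 36.6% with all 7 samples and 50.4% without that sample. Mef2c of this list had a mean of 259 TPM over the 7 samples, against 34.7 TPM for Csf1r. Which cells gave the values of these factors was not tested. Spi1, which encodes PU.1, stood at 7.59 ± 1.16 and 6.86 ± 1.10 TPM (log2 fold change -0.14 ± 0.17, SE). Irf8, its partner, stood at 2.61 ± 0.188 and 2.66 ± 0.249 TPM. Tgfbr2, a receptor subunit for TGF-beta, stood at 9.11 ± 2.29 and 10.7 ± 0.221 TPM. WT replicate 3 was the lowest sample for Tgfbr2, and without it the log2 fold change was 0.06.

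**Figure D4:**
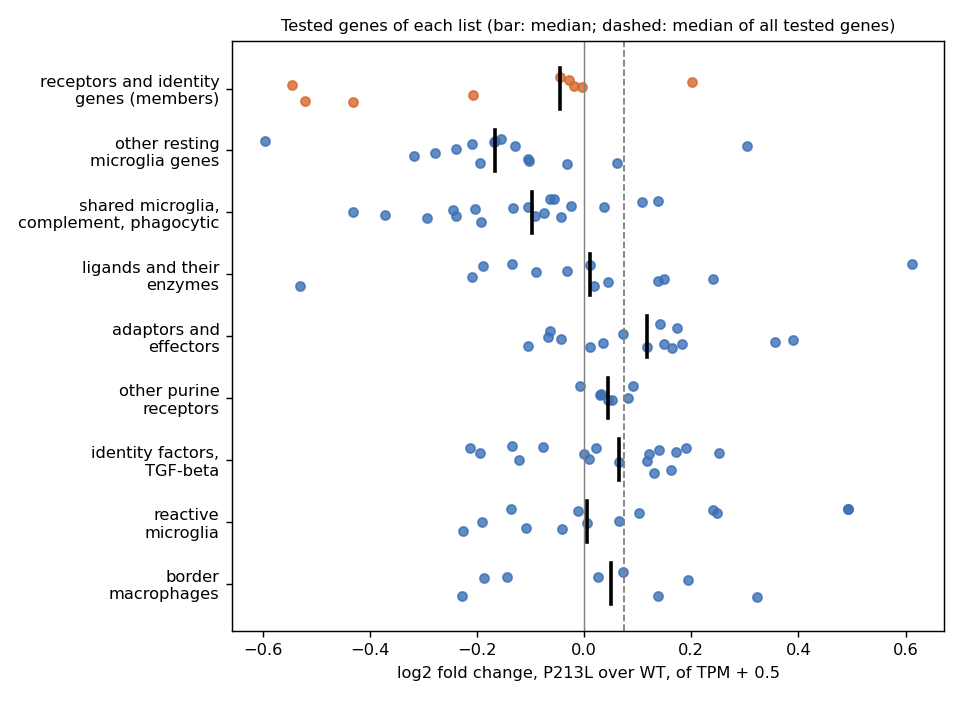
Log2 fold change, P213L over WT, on TPM + 0.5 (horizontal axis), for each tested gene (point) of the 9 members and 8 lists of related genes (rows), with the list median as a black bar and the median of all tested genes as a dashed line. The members, other genes of resting microglia and shared microglia genes have medians below 0 (-0.04, -0.17 and -0.10), and the other lists have medians from 0.00494 to 0.12. Without WT replicate 3 the ligands (-0.10), other purine receptors (-0.05), identity factors (-0.04) and border macrophages (-0.05) have medians below 0 too.

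Genes that microglia raise when they become reactive were mixed. Of 20, 13 were tested, 6 lower and 7 higher, none at an unadjusted p under 0.05, with a median of 0.00494. Spp1, which encodes osteopontin, stood at 10.2, 11.998, 21.0 and 13.6 TPM in WT and at 24.9, 21.8 and 13.5 TPM in P213L. P213L replicates 1 and 2 were the highest and P213L replicate 3 lay among the WT samples. Its log2 fold change was 0.49 ± 0.28 (SE), and 0.69 without WT replicate 3. Gpnmb, a glycoprotein of phagocytic microglia, stood at 0.612 to 1.27 TPM in WT against 1.00 to 1.73 TPM in P213L, also at 0.49. The apolipoprotein Apoe, made mostly by astrocytes, stood at 2104 ± 296 and 2075 ± 116 TPM.

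Other macrophages and some blood cells are known to express part of these genes. Of 12 markers of border macrophages of the meninges and vessels, 8 were tested, 3 lower and 5 higher, none at an unadjusted p under 0.05. Their summed level was 42.2 to 48.3 TPM in WT against 48.9 to 50.7 TPM in P213L, and without WT replicate 3, 5 of the 8 were lower. Cd163 stood at 1.83 ± 0.366 and 1.47 ± 0.0919 TPM. Markers of meningeal fibroblasts were higher in P213L in 9 of 10 genes, where 36.6% of all tested genes were lower. At an unadjusted p under 0.05, 2 were higher, against 2.36% of all tested genes. These markers summed to 105.0 to 192.0 TPM in WT against 183.9 to 247.9 TPM in P213L. All 12 markers of monocytes, neutrophils and lymphocytes had means under 1 TPM over the 7 samples (the highest single value was S100a9 in WT replicate 3, at 1.47 TPM), Ly6g was at 0 in all samples, and their sum was 1.13 to 3.61 TPM in WT against 1.30 to 2.16 TPM in P213L. Markers of the other cell types of the cortex were read in the same way. At an unadjusted p under 0.05 lower were 4 of 10 oligodendrocyte genes, 1 of 10 astrocyte genes, 1 of 10 neuronal genes and 1 of 10 endothelial genes. None of these 4 lists had a gene higher at that threshold. The shares over all tested genes were 1.38% lower and 2.36% higher. Of the 5 tested erythroid genes 1 was higher, and of the 6 tested choroid plexus genes, the 8 tested progenitor genes and the 12 tested genes next to or related to the members none was past it. The part of border tissue in the values of Csf1r, Cx3cr1 and Fcgr3, which border macrophages also express, was not tested.

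P2ry12 and P2ry13 lie side by side within Med12l, which runs on the other strand. On mm10, with GENCODE vM21 gene bounds, P2ry12 is at chr3:59216272-59262871 and P2ry13 at chr3:59207892-59210882, both on the minus strand, and Med12l at chr3:59005825-59318682. The exons of P2ry12 share 9 bases with those of Med12l, and the exons of P2ry13 share none. Med12l stood at 9.29, 11.0, 1.602 and 10.3 TPM in WT and at 9.32, 10.1 and 10.2 TPM in P213L. It was low in WT replicate 3 alone, where P2ry12 was not low. Gpr34 lies within Cask on chromosome X, at 13632089 to 13640858 on the plus strand, and shares no exon bases with it. Cask stood at 60.0 ± 15.3 and 65.7 ± 4.13 TPM. The library kit keeps strand, per the labels, and whether the counting used it is not given in the sources used here. P2ry14, a further purinergic receptor within Med12l, stood at 0.411 TPM in WT against 0.393 TPM in P213L, and the group means of Gpr171 and Gpr82 were at most 0.11 TPM.

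The remaining genes are spread over several chromosomes. Siglech is on chromosome 7 (55768178 to 55778925), Tmem119 on chromosome 5 (113793729 to 113800516), Sall1 on chromosome 8 (89027235 to 89044162), Fcrls on chromosome 3 (87250758 to 87263738) and Cx3cr1 on chromosome 9 (119901616 to 120069879). The exons of Siglech, Tmem119, Sall1 and Fcrls overlap no other gene model. Those of Cx3cr1 share 78 bases with the gene model Gm33858, and those of Csf1r share 873 bases with Hmgxb3, so part of the Csf1r value is uncertain where reads fall there. Hmgxb3 was lowest in WT replicate 3 (6.62 TPM), as Csf1r was, and at 17.0 to 18.6 TPM in P213L. Siglece, a relative of Siglech, stood at 1.28 ± 0.292 and 1.13 ± 0.175 TPM, with overlap.

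Outside all lists, the genes whose log values followed the mean of the 9 members most closely over the 7 samples were Nceh1 (Pearson correlation 0.990), Tmem88b (0.982), Riok3 (0.980), Cd33 (0.977), Palmd (0.9752) and Wipf1 (0.974), out of 13861 candidates. Cd33 is a lectin of the Siglec family, as Siglech is, and stood at 3.30, 4.07, 3.002 and 4.48 TPM in WT and at 2.61, 3.05 and 2.82 TPM in P213L. P213L replicate 2 lay just above WT replicate 3, and the others lay below all WT samples. The log2 fold changes of the 6 genes ran from -0.33 (Cd33) to -0.13 (Wipf1), each with an adjusted p of 0.827 in limma. They were picked to follow the members' mean, which was itself lower in P213L. Their lower values follow from that choice and are no separate result.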

How the data were processed

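Per the labels' protocols, fresh cortex was the source of the RNA and the libraries keep strand. The submitters' processing notes list HISAT2, HTSeq and mm10. Tool versions, annotation and gene lengths: not given in the sources used here. Per the file headers, the deposited values are TPM, with a column for each sample. TPM divides by gene length and scales each library to 1000000, so a few abundant transcripts that differ can shift all other values. No 2 columns were identical.

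Genes averaging at least 1 TPM entered the test as log2(TPM + 0.5) with limma 3.58.1 in R 4.3.3 (mean-variance trend, two-sided, Benjamini-Hochberg over all 17582 tested genes, threshold 0.05). This scale understates the change of low genes. Single genes were also compared by exact permutation over the 35 assignments of 7 samples to groups of 4 and 3, two-sided, which cannot give a p under 0.0286. The fit was checked on simulated data. Depth was estimated by multiplying TPM by GENCODE vM21 exon lengths and taking the most frequent low value as 1 counted unit. The table holds no counts, so no count test was run. Promoters came from RefSeq for 6 of the 9 genes. Gpr34, Tmem119 and Csf1r are not shown.

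The 9 genes and all 18 further lists were chosen with earlier results of these data known. Named beside the members are up to 4 genes of a list with the smallest p, set ligands and factors, and the 6 genes most like the members' mean. Itgam, Tgfb1, Apoe, Malat1, Rn18s-rs5, Med12l, Cask and the receptors near P2ry12 and Gpr34 were named for their role or for a value that had been seen. The alternatives were other pseudocounts (0.1 and 1), other filters and scalings, a fit with no trend, a robust fit, fits with sample weights or with a replicate block, and each sample left out in turn. Protein sequences were not used here, and some genes that the naming rule selects are not reported here.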

Additional observations from a re-analysis of the deposited data

Results flagged for a closer look

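In 9 measures 1 WT sample lay far from the other WT samples, by the ratio of its gap to the range of the group of 4 against Dixon's 95% critical value. Among 28 measures, the 9 genes and 19 summed lists, chance flags about 1 in 20 groups, and the measures share samples. WT replicate 1 was low for Gpr34 (9.76 TPM, others 15.3 to 15.9 TPM) and for Siglech (6.80 TPM, others 8.81 to 9.18 TPM). WT replicate 3 was low for Csf1r (26.4 TPM, others 37.2 to 38.7 TPM) and for Sall1 (11.1 TPM, others 18.3 to 19.6 TPM). Its summed level was low for the ligands and their enzymes (723.2 TPM, others 939.0 to 970.0 TPM) and for the genes next to or related to the members (154.3 TPM, others 264.9 to 268.9 TPM). Its sum was high for the other genes of resting microglia (2695 TPM, others 1803 to 1876 TPM), of which Cst3 made up 2177 TPM, and for the erythroid genes (903.5 TPM, others 415.3 to 492.2 TPM). The choroid plexus genes summed to 1251 TPM in WT replicate 2, against 5.94 to 9.11 TPM in the other WT samples. P2ry12 had no such sample.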

How the results depend on the processing

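P2ry12, Gpr34 and Siglech were lower in P213L under all 18 alternatives, and the calls depend on few samples. With sample weights, which gave WT replicate 3 a weight of 0.0431 and P213L replicate 3 one of 6.90, P2ry12 (-0.64), P2ry13 (-0.41), Gpr34 (-0.74), Siglech (-0.46) and Cx3cr1 (-0.20) passed the adjusted limma threshold. Fcrls was then at 0.0505, the members' median at -0.20, 3981 genes (22.6%) passed, 3179 were lower at an unadjusted p under 0.05, and 5 members were. The number of genes lower at an unadjusted p under 0.05, 242, became 502 without a filter, 127 at a mean of at least 5 TPM and 410 with quantile normalization. Leaving out 1 sample at a time gave 107 (without P213L replicate 1) to 702 (without WT replicate 3), and 0 to 3 members: 0 without P213L replicate 1, and 1 without WT replicate 2, WT replicate 4 or P213L replicate 3. It gave P2ry12 -0.73 to -0.37, Cx3cr1 -0.15 to 0.0353, Tmem119 -0.0904 to 0.0015, Csf1r -0.15 to 0.0336 and Fcrls -0.0394 to 0.0484. With the replicate block, in which WT replicate 4 has no partner, P2ry12 was at -0.52, Cx3cr1 at 0.0353 and Csf1r at 0.0336. In that fit 2 members were lower at an unadjusted p under 0.05, against 1.08% of all tested genes. Same-numbered samples deviated together weakly or not at all (0.129, 0.170 and -0.100), so the numbers are not shown to pair them, and replicate 3 did not correlate best with its own number. Reads are unknown in a TPM table, so the units per gene are estimates.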

Other observations

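Clec7a, a lectin of reactive microglia with a mean under 1 TPM and therefore not tested, was at 0.5002, 0.519, 0.604 and 0.689 TPM in WT and at 1.26, 1.22 and 0.762 TPM in P213L, without overlap. Itgax stood at 0.240 to 0.540 TPM in WT and at 0.391 to 0.951 TPM in P213L, and Cst7 at 0.107 to 0.502 and 0.435 to 0.729 TPM. Both overlapped between the groups. Together with Spp1 and Gpnmb these genes are known to rise in the microglia of developing white matter. Lpl of the same programme had the lower mean in P213L (37.7 ± 6.97 and 32.2 ± 6.34 TPM), as had Igf1 (7.46 ± 1.56 and 6.73 ± 1.36 TPM). Cd9 of the reactive list was lower too (69.1 ± 15.6 and 59.5 ± 4.52 TPM). Of the 13 tested genes of that list, 6 were lower and 7 higher. Its other untested genes had lower means in P213L, all with overlap. They were Ccl4 (0.344 TPM in WT and 0.143 TPM in P213L), Tnf (0.232 and 0.137 TPM), Il1b (0.225 and 0.115 TPM) and Ccl3 (0.380 and 0.336 TPM). The values named here are of low or overlapping genes, chosen after they were seen. For Clec7a the exact permutation test, two-sided, gave p = 0.0286, the smallest this design allows.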
